A study of Mus musculus with 6 samples.

Results

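Of 19938 genes measured on the arrays, 41 belong to the amino acid transporter families Slc1a, Slc3a, Slc7a, Slc36a, Slc38a and Slc43a. They were taken by gene symbol. The cystine transporter Slc7a11, a family member that rose in miR-155 KO cells, was left out by name and is given beside its partners. A gene with more than 1 probe set was represented by the one with the highest mean over the 6 arrays. The cells were mast cells grown for 5 weeks from bone marrow of C57BL/6J mice, either wild type (WT) or lacking the microRNA miR-155 (labelled mir-155 KO, here miR-155 KO), in IL-3 at 0.5 ng/ml with SCF at 1 ng/ml. All cultures of both genotypes were loaded overnight with IgE against DNP at 0.2 µg/ml and stimulated for 1 h with 20 ng/ml of DNP-HSA, the antigen, before RNA was taken. Each genotype had 3 independent cultures with 1 array per culture. No culture without antigen was analysed here, so each difference is one between genotypes after stimulation. The labels do not say how the deletion was made or whether each culture came from a mouse of its own, and p-values measure the spread between these cultures.

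Amino acid carriers sit in the plasma membrane or in lysosomes and supply the cell with building blocks for protein, glutathione and nucleotides. Many do not import on balance but exchange one amino acid for another, so that carriers driven by sodium (the Slc38 and Slc1 families) load the cell with glutamine or alanine, which the heterodimeric exchangers then trade for leucine and other large neutral amino acids. Those exchangers consist of a glycoprotein heavy chain of the Slc3 family and a light chain of the Slc7 family, and the leucine they bring in is one of the signals that activate the growth kinase complex mTORC1 on lysosomes. When amino acids run short, the kinase GCN2 and the transcription factor ATF4 are known to induce several of these carriers.

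The sequences shown are those of the deleted microRNA and of promoters of 2 members, both read from RefSeq tables of build GRCm38.p6. The mature miR-155-5p (chr16:84714143-84714165, plus strand) is printed because it is what the KO cells lack, with its seed, bases 2 to 8, in capitals. Slc43a2 was the member that passed the test, and both of its annotated promoters are printed. Slc1a4, the member with the next lowest p, is printed because its promoter holds the motif in capitals. Each promoter runs from 250 bases before the start site to 50 bases after it. The Slc43a2 promoters lie at chr11:75531444-75531743 and chr11:75531862-75532161 on the plus strand, and that of Slc1a4 at chr11:20332664-20332963 on the minus strand.
miR-155-5p: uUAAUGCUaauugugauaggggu
Slc43a2 first promoter: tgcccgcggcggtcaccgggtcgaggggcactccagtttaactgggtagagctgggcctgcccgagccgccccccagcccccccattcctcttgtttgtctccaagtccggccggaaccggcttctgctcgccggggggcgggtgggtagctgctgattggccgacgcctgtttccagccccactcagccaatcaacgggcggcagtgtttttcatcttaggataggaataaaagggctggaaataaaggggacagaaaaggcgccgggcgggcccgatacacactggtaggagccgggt
Slc43a2 second promoter: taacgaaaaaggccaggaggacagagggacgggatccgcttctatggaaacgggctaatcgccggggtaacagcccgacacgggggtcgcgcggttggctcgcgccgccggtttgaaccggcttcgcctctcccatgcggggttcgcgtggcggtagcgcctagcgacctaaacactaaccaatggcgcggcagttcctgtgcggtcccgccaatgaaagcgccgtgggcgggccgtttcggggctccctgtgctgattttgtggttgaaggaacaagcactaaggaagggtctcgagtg
Slc1a4 promoter: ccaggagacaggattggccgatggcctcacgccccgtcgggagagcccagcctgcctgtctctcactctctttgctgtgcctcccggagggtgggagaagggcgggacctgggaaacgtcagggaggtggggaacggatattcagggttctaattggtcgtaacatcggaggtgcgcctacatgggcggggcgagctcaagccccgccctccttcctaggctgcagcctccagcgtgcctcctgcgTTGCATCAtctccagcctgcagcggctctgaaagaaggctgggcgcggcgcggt

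The capitals in Slc1a4 are TTGCATCA, which is TGATGNAA read on the other strand. This is the core of the element bound by C/EBP and ATF factors in amino acid response genes. The match begins 4 bases upstream of the start site and spans it. Promoters were tabulated for 30 of the 41 members, 41 windows in all. TGATGNAA on either strand was found in 3 of these 41 windows, from 2 members, Slc1a4 and Slc7a7, and in 3.97% of the 32851 promoters of the table. TGACGTCA, the cyclic AMP response element, was found in 1 of the 41 windows, that of Slc38a6, and in 1.79% of all promoters. No member held both motifs, and neither Slc43a2 window held TGATGNAA or TGACGTCA. Such a match is a description of letters in the window.

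Mast cell identity was plain in the arrays. Of 14 measured mast cell markers 13 lay above the median of the value table (3.70, log2). The IgE receptor chain Fcer1a read 11.95 to 12.20, the SCF receptor Kit 11.71 to 12.09 and the granule protease Cpa3 12.74 to 13.11. By limma 0 of the 14 passed, with a median difference of 0.04, and 3 had an unadjusted p under 0.05, beside 12.7% of all genes. These 3 were Mcpt4 (difference 0.44, adjusted p = 0.174), Hdc (0.84, adjusted p = 0.233) and Srgn (0.21, adjusted p = 0.311). All 3 were higher on every KO array, as were 8.18% of all genes. Of 13 macrophage and monocyte markers 2 lay above the median, and the defining receptor Csf1r read 3.35 to 3.54. Within that list the chemokine receptor Cx3cr1 fell by 0.95 (adjusted p = 0.0280), 12 markers did not pass and the median difference was -0.10. Cx3cr1 had an adjusted p of 0.0178 without KO replicate 2 and of 0.0585 to 0.0911 without any other single array. Its part in the differences of the carriers was not tested. Of 13 neutrophil markers 0 lay above the median, of 10 basophil and eosinophil markers 5, of 15 dendritic and lymphoid markers 4, of 7 erythroid and megakaryocyte markers 2 and of 10 stromal markers 3. In these lists 0 markers passed by limma, where 0.507% of all genes rose and 0.316% fell. An unadjusted p under 0.05 was found for 2 markers, 1 of them basophil or eosinophil and 1 dendritic or lymphoid, beside 12.7% of all genes. The lowest adjusted p was that of the MHC class II gene H2-Ab1, which was lower on every KO array (difference -0.56, adjusted p = 0.0523). The basophil protease gene Mcpt8 read between 5.23 and 7.58 over the 6 arrays, with overlapping genotypes. The part of such cells in the carriers' differences was not tested. KO replicate 1 lay apart from the other arrays. On the first principal component of all genes, which held 48.3% of the variance, it stood at 32.0, with KO replicates 2 and 3 at 5.36 and 7.31 and WT arrays between -19.5 and -10.6. Fewer cells of a type and less RNA per cell cannot be told apart in such bulk samples.

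Among the amino acid carrier transcripts 1 passed the test of a difference between genotypes, and it was lower in miR-155 KO cells. By limma, with p-values adjusted over all 19938 genes and a threshold of 0.05, 1 of the 41 members fell, 0 rose and 40 did not pass. The member that fell was Slc43a2, the leucine carrier LAT4. The shares of all genes that fell and rose were 0.316% and 0.507%, against 2.44% and 0 of the members. With 1 call the members' count is too small to be read against that background. At an unadjusted p under 0.05 there were 9 members, or 22%, against 12.7% of all genes. The 3 KO arrays all lay above the 3 WT arrays for 5 members (12.2%) and all below for 5 (12.2%), where 8.18% and 9.05% of all genes did so. Differences had no common direction, with 20 positive and 21 negative and a median of -0.02, beside -0.01 over all genes. Of the 41 members 19 had a mean above the median of the value table and 22 did not. The 22 dim members read 2.27 to 3.82 on single arrays and differed by at most 0.19, and their signal may be background. Among the 19 brighter members the median size of the difference was 0.23, beside 0.13 over the 10743 genes above the same level.

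**Figure D1:**
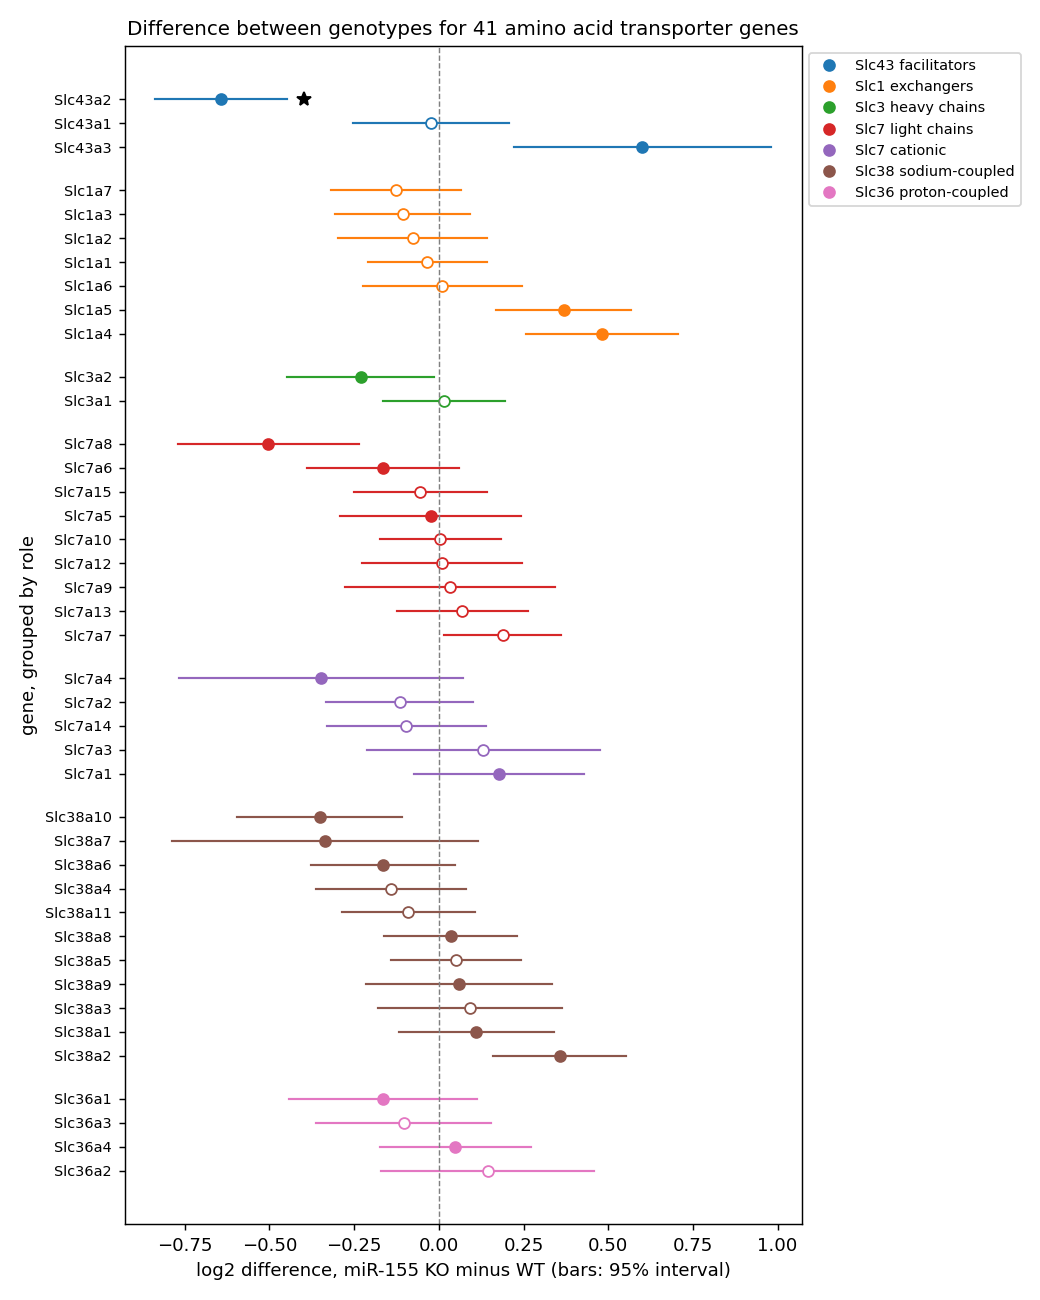
Log2 difference between genotypes (miR-155 KO minus WT, n = 3 arrays each) for each of the 41 transporter genes, with 95% intervals from limma as bars and colours for role. Filled circles are genes with a mean above the median of the value table, open circles are dimmer genes, and the star marks Slc43a2, the gene that passed the test.

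The Slc43 family held the largest decrease and the largest increase among the members. LAT4, encoded by Slc43a2, is a facilitator that lets leucine, other branched-chain amino acids, phenylalanine and methionine cross the membrane without sodium. On the WT arrays Slc43a2 read 6.46, 6.64 and 6.62, and on the KO arrays 5.95, 5.94 and 5.91. The KO arrays lay close together and at least as far below WT on replicates 2 and 3 as on replicate 1, the array that stood apart. Slc43a2 thus fell by 0.64 (SE 0.09, 95% interval -0.84 to -0.45, 1.56-fold lower, adjusted p = 0.0172). Without KO replicate 1 it fell by 0.65 (adjusted p = 0.0367). Leaving out any of the WT arrays, or KO replicate 3, ended the call (adjusted p from 0.0522 to 0.0772), while the difference itself stayed between -0.70 and -0.61.

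Slc43a3 was higher on every KO array without passing. Human studies describe its product as a transporter of purine nucleobases rather than of amino acids, although it shares the family name. It read 7.36, 6.74 and 7.33 on WT arrays and 7.65, 7.67 and 7.91 on KO arrays. The groups do not overlap, and WT replicate 2 was the low array that widened the spread (SD 0.35 in WT, 0.15 in KO). The difference was 0.60 (SE 0.17, interval 0.22 to 0.98, adjusted p = 0.152), and without WT replicate 2 it was 0.40. LAT3, encoded by Slc43a1, read 3.38 to 3.68 over the 6 arrays, below the median of the value table, with a difference of -0.02.

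**Figure D2:**
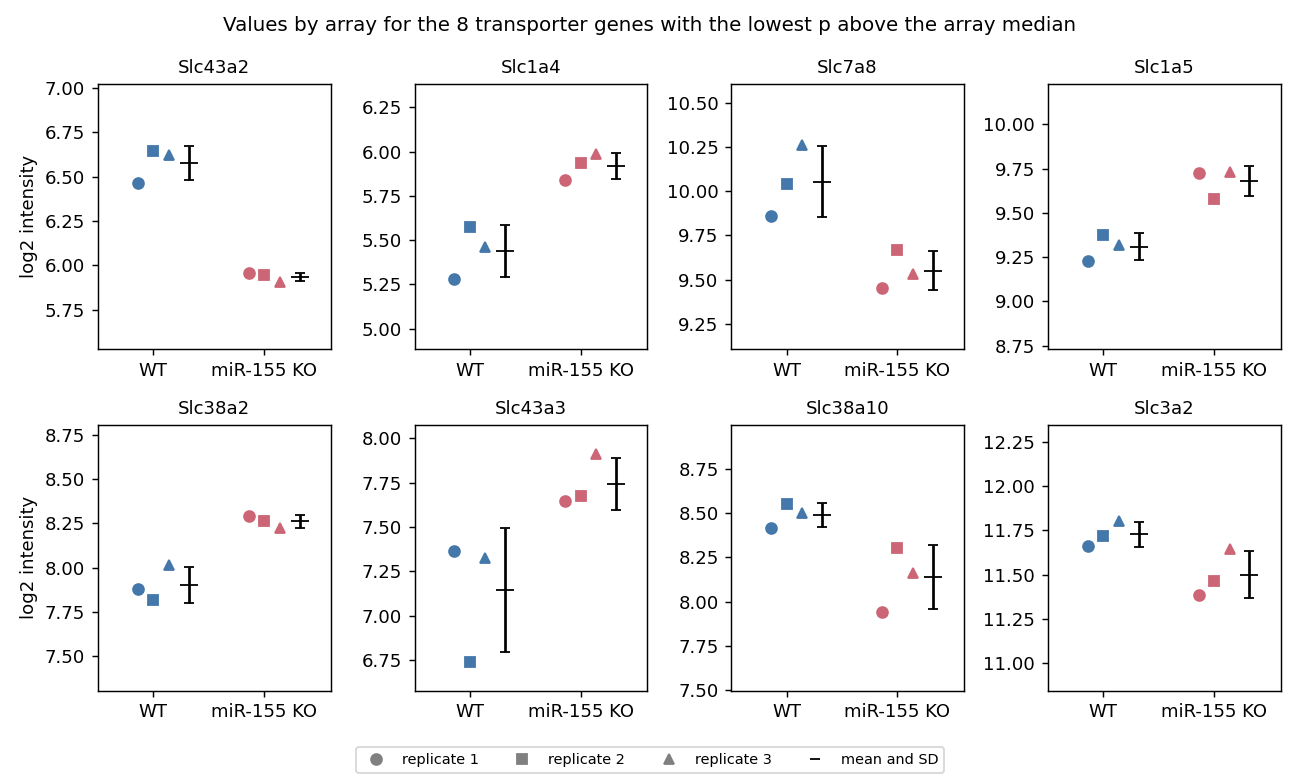
Log2 intensity on each of the 6 arrays for the 8 members with the lowest p among those above the median of the value table, with replicate numbers as symbols and the mean with its SD as a bar beside each group. The vertical axes differ in position but span the same length, and in all 8 panels the WT and KO points do not overlap.

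Both neutral amino acid exchangers of the Slc1 family were higher on every KO array without passing the test. ASCT1, encoded by Slc1a4, exchanges alanine, serine, cysteine and threonine. It read 5.28, 5.57 and 5.46 in WT and 5.84, 5.94 and 5.98 in KO. This is a difference of 0.48 (SE 0.10, interval 0.26 to 0.71, 1.40-fold higher, adjusted p = 0.0715), and over 13 other fits the adjusted p ran from 0.0537 to 0.202. ASCT2, encoded by Slc1a5, takes up glutamine in exchange for other neutral amino acids. Its values were 9.23, 9.38 and 9.32 in WT and 9.72, 9.58 and 9.73 in KO, a difference of 0.37 (SE 0.09, interval 0.17 to 0.57, adjusted p = 0.102). The other 5 members of the family are the glutamate carriers Slc1a1, Slc1a2, Slc1a3, Slc1a6 and Slc1a7, best known from brain and retina. All 5 were dim, with differences from -0.13 (Slc1a7) to 0.01 (Slc1a6). Slc1a7 read 3.62, 3.51 and 3.50 in WT and 3.36, 3.40 and 3.50 in KO, and its groups touch without overlapping.

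The sodium-coupled neutral carriers of the Slc38 family, 11 genes, were split. SNAT2, encoded by Slc38a2, accumulates alanine and glutamine and is known as a carrier that cells induce when amino acids are scarce. Slc38a2 read 7.88, 7.82 and 8.02 on WT arrays and 8.29, 8.26 and 8.22 on KO arrays. All 3 KO arrays lay above all 3 WT arrays, and the difference of 0.36 (SE 0.09, interval 0.16 to 0.55) did not pass (adjusted p = 0.106). Slc38a1, which encodes the related SNAT1, read 8.77, 8.64 and 8.65 in WT and 8.97, 8.69 and 8.72 in KO. Its groups overlap at a difference of 0.11 (interval -0.12 to 0.34), and a second probe set of Slc38a1 differed by -0.19.

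Slc38a10, a little-studied member of the family, was lower on every KO array. It read 8.41, 8.55 and 8.50 in WT and 7.94, 8.30 and 8.16 in KO, a difference of -0.35 (SE 0.11, interval -0.59 to -0.11, adjusted p = 0.192). KO replicate 1 was the lowest array, and the difference was -0.26 without it. Slc38a7, whose product SNAT7 exports glutamine from lysosomes, showed this more strongly. It read 5.84, 5.84 and 5.99 in WT, 5.04 on KO replicate 1, and 5.93 and 5.69 on the other KO arrays. The difference of -0.34 (SE 0.20, adjusted p = 0.565) shrank to -0.08 without KO replicate 1. On that array the median of 29 cell cycle genes was also far below the WT mean, at -1.39. The part of cell cycle activity in the Slc38a7 and Slc38a10 values was not tested.

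SNAT9, encoded by Slc38a9, is a lysosomal protein that senses arginine for mTORC1. Slc38a9 read 6.57, 6.68 and 6.76 in WT and 6.83, 6.88 and 6.47 in KO. KO replicate 3 lay below all WT arrays and the other KO arrays above them, so the difference of 0.06 (interval -0.21 to 0.33, adjusted p = 0.913) has no settled sign. A second, dimmer probe set of the gene differed by -0.03. Slc38a6 read 3.80, 3.96 and 3.95 in WT and 3.62, 3.80 and 3.81 in KO, little above the median of the value table, with a difference of -0.16. Slc38a8 lay at the same low level and differed by 0.04. The remaining Slc38a3, Slc38a4, Slc38a5 and Slc38a11 were dim, and of these Slc38a4 had the lowest p. Slc38a4, an alanine carrier of liver and placenta, read 3.06, 2.85 and 2.85 in WT and 2.89, 2.71 and 2.73 in KO.

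Among the heterodimeric exchangers the heavy chain and one of its light chains were lower on every KO array. Slc3a2 encodes the CD98 heavy chain, which carries the light chains to the cell surface. It read 11.66, 11.72 and 11.80 in WT and 11.39, 11.47 and 11.64 in KO. The groups lie close to each other without overlapping, and the difference was -0.23 (SE 0.10, interval -0.45 to -0.01, adjusted p = 0.357). LAT2, encoded by Slc7a8, is a light chain for a broad range of neutral amino acids. Slc7a8 read 9.86, 10.04 and 10.26 in WT and 9.45, 9.67 and 9.53 in KO. The difference of -0.50 (SE 0.12, interval -0.77 to -0.24, 1.42-fold lower) did not pass (adjusted p = 0.0967, from 0.0540 to 0.247 over 13 other fits).

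Slc7a5 and Slc7a6, light chains of the same heavy chain, did not pass. LAT1, encoded by Slc7a5, is the light chain best known for supplying leucine to growing and activated leukocytes. Slc7a5 read 9.84, 9.91 and 9.61 in WT and 9.65, 9.68 and 9.96 in KO, so that the groups overlap. Its difference of -0.02 had an interval of -0.29 to 0.24. Slc7a6, a light chain that exchanges cationic for neutral amino acids, read 7.60, 7.37 and 7.55 in WT and 7.35, 7.23 and 7.44 in KO (difference -0.17, adjusted p = 0.571). Slc7a11 is the light chain left out of the 41. It is another partner of the CD98 heavy chain and read 4.17, 4.46 and 4.55 in WT and 6.11, 5.86 and 6.69 in KO. It rose by 1.83 (SE 0.20, 3.55-fold, adjusted p = 0.00827), more than any of the 41 differed.

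Most of the remaining light chains gave only dim signal. Slc7a7, the close relative of Slc7a6 whose loss causes lysinuric protein intolerance in humans, read 2.96, 3.00 and 2.96 in WT and 3.15, 3.16 and 3.17 in KO. The arrays of each genotype lay tightly together below the median of the value table, and the difference of 0.19 (SE 0.08, adjusted p = 0.339) did not pass. Slc3a1, the heavy chain of kidney and gut, and its light chain partners Slc7a9 and Slc7a13 were dim as well, with differences of 0.02, 0.03 and 0.07. Slc7a10, Slc7a12 and Slc7a15 lay between 2.27 and 3.56 on all arrays and differed by -0.05 to 0.01.

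Cationic amino acid carriers, 5 genes, gave 0 calls. Slc7a1 encodes CAT1, the widespread carrier of arginine and lysine. It read 6.93, 7.15 and 6.93 in WT and 7.33, 7.01 and 7.21 in KO, with overlapping groups and a difference of 0.18 (SE 0.11, interval -0.07 to 0.43, adjusted p = 0.597). Slc7a4, an orphan of the family without known transport activity, read 4.71, 5.18 and 4.96 in WT and 4.28, 4.99 and 4.54 in KO. The difference was -0.35 (SE 0.18, adjusted p = 0.505), and it was -0.19 without KO replicate 1, the lowest array for this gene. Slc7a2, which supplies arginine to macrophages, Slc7a3 and Slc7a14 were dim and differed by -0.12, 0.13 and -0.10.

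The Slc36 family, some of whose members move small neutral amino acids out of lysosomes or into cells with protons, gave 0 calls among 4 genes. Slc36a1 encodes the lysosomal PAT1. It read 6.20, 6.24 and 6.22 on WT arrays and 6.13, 6.26 and 5.79 on KO arrays. KO replicate 3 was the lowest array, KO replicate 1 also lay below the WT arrays, and without KO replicate 3 the difference of -0.16 became -0.03. Slc36a4, which encodes PAT4, read 7.16, 7.37 and 7.40 in WT and 7.42, 7.25 and 7.41 in KO (difference 0.05, interval -0.17 to 0.27). Slc36a2 and Slc36a3, carriers of kidney and testis among other tissues, were dim.

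**Figure D3:**
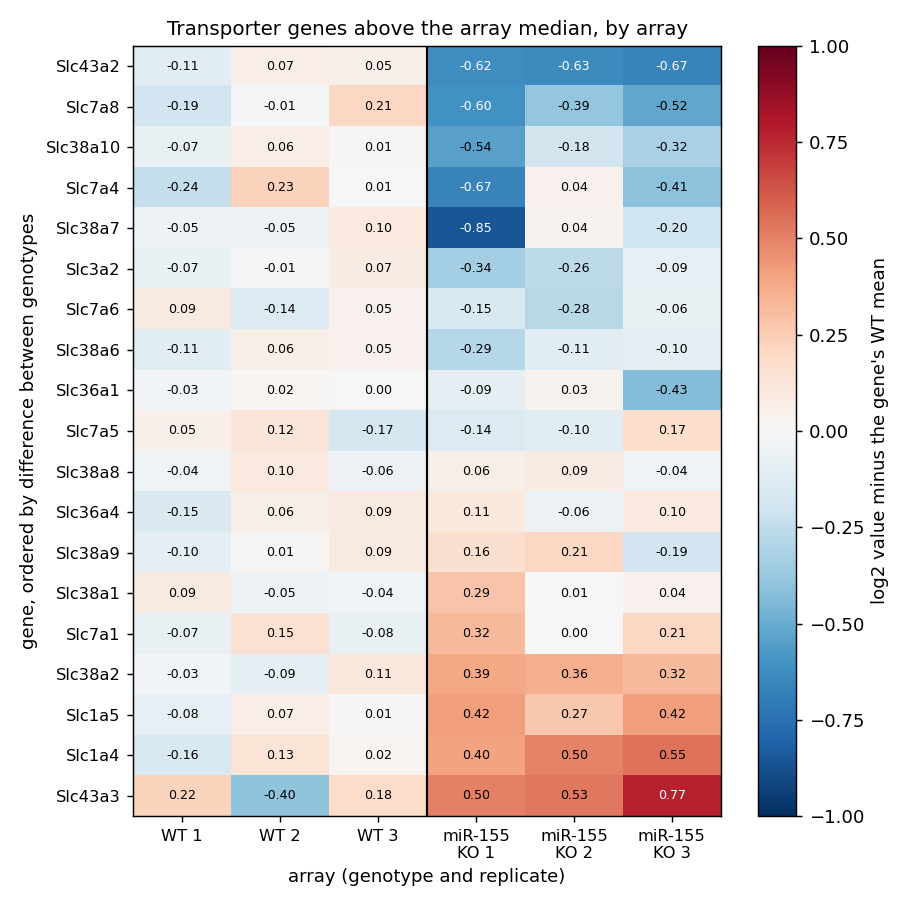
Log2 value minus the WT mean of the gene for the 19 members above the median of the value table (rows, ordered by the difference between genotypes) on the 6 arrays (columns), printed in each cell and coloured from blue (lower) to red (higher). Slc43a2 is lower by 0.62 to 0.67 on all 3 KO arrays, whereas Slc38a7 is at -0.85 on KO replicate 1, -0.20 on KO replicate 3 and 0.04 on KO replicate 2.

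Read across roles, differences above 0.3 in size occurred in carriers of several families. Of the 9 members with such a difference, Slc1a4, Slc1a5, Slc38a2 and Slc43a3 were higher in KO, and Slc43a2, Slc7a8, Slc38a10, Slc7a4 and Slc38a7 were lower. Only Slc43a2 among these 9 passed the test.

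Genes around these carriers gave few calls of their own. Of 30 listed amino acid carriers in other families, such as the Slc6 carriers and the mitochondrial Slc25 carriers, 29 were measured. By limma 0 of these rose or fell, and 5 of the 29 had an unadjusted p under 0.05, beside 12.7% of all genes. Their median difference was 0.00. Slc6a19, a carrier of kidney and gut, had the lowest p of these, with 3.89, 3.70 and 4.01 in WT and 3.22, 3.56 and 3.35 in KO (adjusted p = 0.106). Of 40 measured genes of amino acid sensing by mTORC1 0 passed by limma, and the median difference was -0.01. An unadjusted p under 0.05 was found for 12 of the 40, beside 2531 of all 19938 genes (12.7%). The KO arrays all lay above the WT arrays for 7 of the 40 and all below for 5, beside 8.18% and 9.05% of all genes. The kinase gene Mtor itself read 6.96, 6.93 and 6.75 in WT and 7.30, 7.10 and 7.24 in KO, a difference of 0.33 (SE 0.10, adjusted p = 0.167). Lamtor4, which encodes a subunit of the lysosomal Ragulator scaffold, differed by -0.50 (adjusted p = 0.211), and KO replicate 1 was its lowest array at 5.24.

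Genes of the amino acid response were mostly positive in sign. Among 28 measured genes 1 rose and 1 fell by limma, and the other 26 did not pass. Of all genes 0.507% rose and 0.316% fell. Of the 28, 11 had an unadjusted p under 0.05, beside 12.7% of all genes. Differences were positive for 21, with a median of 0.15, beside 9566 of 19938 and a median of -0.01 over all genes. The KO arrays all lay above the WT arrays for 11 and all below for 2, beside 8.18% and 9.05% of all genes. The gene that rose was Asns, asparagine synthetase, with 9.31, 9.33 and 9.42 in WT and 10.05, 9.84 and 10.07 in KO (1.55-fold, adjusted p = 0.0269). Ddit4, an inhibitor of mTORC1 signalling induced by stress, fell by 0.68 (SE 0.08, adjusted p = 0.0126). With 1 array left out at a time, Asns passed when this was KO replicate 2 (adjusted p = 0.0245) and otherwise had an adjusted p of 0.0620 to 0.114. Ddit4 passed when it was any KO array and was lost when it was any WT array (adjusted p = 0.0618 to 0.0656). Next by p were Gpt2 (difference 0.43, adjusted p = 0.0962), Myc (0.72, adjusted p = 0.0984) and Shmt2 (0.38, adjusted p = 0.123). Each was higher on every KO array without passing. Atf4 differed by 0.13 (adjusted p = 0.629). Its target Trib3, a pseudokinase and 1 of the 7 genes with a negative difference, differed by -0.39 (adjusted p = 0.543). Of 17 measured cytosolic tRNA synthetases, which load amino acids onto tRNA, 0 passed by limma. An unadjusted p under 0.05 was found for 10 of them, beside 12.7% of all genes. Of the 17, 14 were positive, with a median of 0.20, and Iars, the isoleucine enzyme, had the lowest p at 0.40 (SE 0.09, adjusted p = 0.0880). For 9 of the 17 all KO arrays lay above all WT arrays and for 1, Vars, below, beside 8.18% and 9.05% of all genes.

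**Figure D4:**
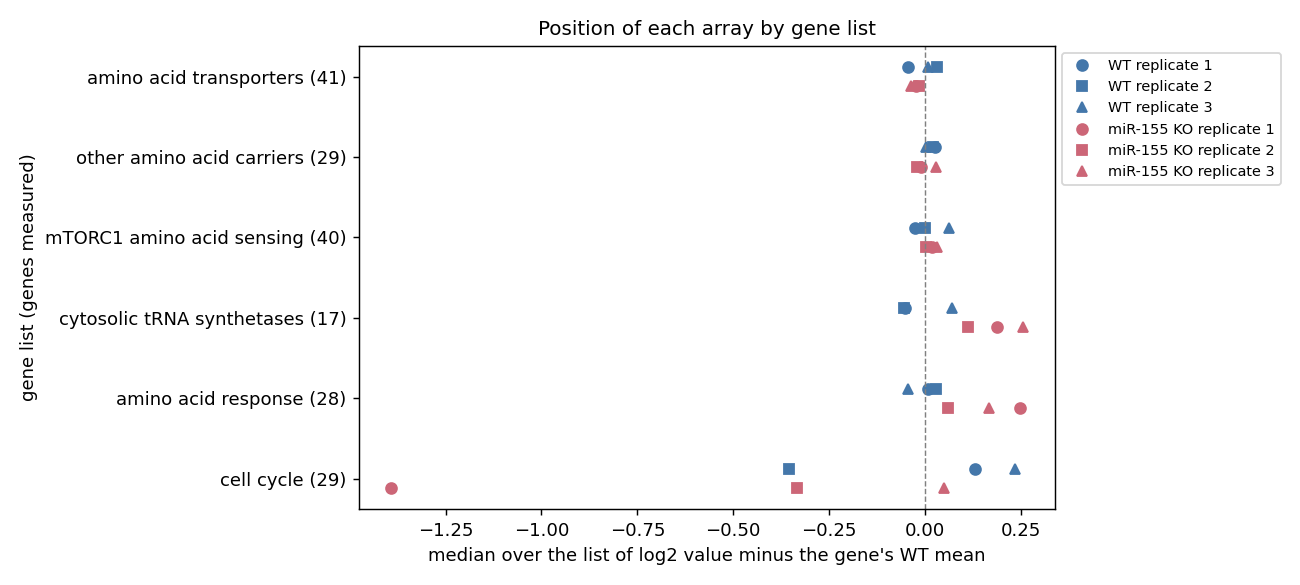
Median over each gene list (number of genes measured in parentheses) of the log2 value minus the WT mean of the gene, for each WT array (blue) and miR-155 KO array (red). The amino acid transporters stand between -0.04 and 0.03 on all 6 arrays, the tRNA synthetases between 0.11 and 0.26 on the KO arrays, and the cell cycle genes at -1.39 on KO replicate 1.

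Set by array, the transporters as a list did not separate the genotypes. Their median against the WT mean was -0.02, -0.02 and -0.04 on KO replicates 1, 2 and 3 and -0.04, 0.03 and 0.01 on WT replicates 1, 2 and 3. The synthetases stood at 0.19, 0.11 and 0.26 on the KO arrays and at -0.05, -0.06 and 0.07 on the WT arrays. For the amino acid response the values were 0.25, 0.06 and 0.17 on the KO arrays and from -0.04 to 0.03 in WT. Cell cycle genes stood at -1.39, -0.33 and 0.05 on the KO arrays and 0.13, -0.36 and 0.24 on the WT arrays. WT replicate 2 and KO replicate 2 were thus at about the same level. Of the 29 cell cycle genes 28 had a negative difference, beside 10372 of all 19938 genes, and 0 passed by limma. Their median difference was -0.55, and -0.13 without KO replicate 1. The lists share genes (Sesn2 and Lars each stand in 2 of them) and were not tested against each other.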

How the data were processed

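RNA of 6 mast cell cultures was hybridised to Affymetrix Mouse Gene 1.0 ST arrays. The deposited values are log2 intensities that the authors made with RMA (background correction, normalization between arrays and summary of probes), per the submitters' processing notes. No version of RMA is stated there. No further normalization was applied. Of 35557 rows, 21789 had 1 gene symbol in the platform annotation, 1621 several and 12147 were not listed; the first gave 19938 genes. All 41 members were found in the RefSeq gene table.

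The model was limma 3.58.1 (R 4.3.3; lmFit, then eBayes with neither trend nor robust priors), with genotype alone, and p-values were two-sided and Benjamini-Hochberg adjusted over all genes. The fit had 4 residual and 4.68 prior degrees of freedom. Intervals are 95% intervals of the moderated difference and are not adjusted for the number of genes. For arrays their number limits the precision. The fit was tested on simulated data with planted differences larger than that of any member. That test does not cover differences of the members' size.

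The members and the gene lists were chosen with earlier results of these data known, so no list was tested as a set. Full values are given for the 16 members with the lowest p, Slc3a2 and Slc38a9. Of each other list, calls and up to 3 others by p are named, some by difference and adjusted p alone. Slc7a5, Slc38a1, Slc36a1, Slc36a4, Atf4, Trib3, Slc7a11 and the markers were named after their values were seen. Alternatives were a replicate block, 2 rescalings, priors with trend and robust options, removal of dim genes, testing every row, averaging the rows of a symbol, and leaving out each array. Correlations of deviations from the group means over genes were -0.01, -0.06 and 0.24 for same-numbered WT and KO cultures. For the other pairs of WT and KO cultures they ran from -0.246 to 0.235, so the numbers were not treated as pairs. Levels of different genes are not compared, since probes differ in brightness. Plots were drawn with matplotlib 3.10.9.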

Additional observations from a re-analysis of the deposited data

How the results depend on the processing

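Over 7 alternatives and 6 fits without 1 array, 0 transporters rose, and 0 passed besides Slc43a2. The count of transporters that fell was 1 in all 7 except with every row tested. There it was 0 (Slc43a2 adjusted p = 0.0979), with both the limma fit and the adjustment made over all 35557 rows. In the fits without 1 array it ran from 0 to 1. With every row tested, 4 genes in all rose and 0 fell, and of the amino acid response genes 0 rose and 0 fell. In all, 99 genes fell with the filter on dim genes and 105 with trend and robust priors. The replicate block kept the call of Slc43a2 (adjusted p = 0.0370) and gave 2 risen amino acid response genes. With the block 112 genes in all rose and 87 fell, beside 101 and 63 without it. Without 1 array, the genes risen ran from 13 to 127 and those fallen from 2 to 40, and the amino acid response gave 0 to 2 risen and 0 to 1 fallen. These fits had fewer degrees of freedom, and the causes of the changed counts were not tested. Without 1 array the median difference ran from -0.050 to 0.003 for the transporters, from 0.098 to 0.238 for the amino acid response and from -0.043 to 0.049 for mTORC1 sensing.

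Of the 41 differences 28 kept their sign in every fit, 15 of them above the median of the value table. Signs turned for Slc38a1 with its rows averaged (-0.041) and for Slc7a10 with repeated quantile normalization (-0.002). Without 1 array the difference ran from -0.133 to 0.003 for Slc1a2, -0.064 to 0.079 for Slc1a6, -0.169 to 0.015 for Slc36a3, -0.025 to 0.104 for Slc36a4, -0.003 to 0.084 for Slc38a5, -0.015 to 0.186 for Slc38a9, -0.016 to 0.035 for Slc3a1, -0.109 to 0.039 for Slc43a1, -0.023 to 0.028 for Slc7a10, -0.053 to 0.112 for Slc7a12, -0.121 to 0.037 for Slc7a5 and -0.087 to 0.172 for Slc7a9. With 3 arrays a group, the differences of Slc7a8 (-0.50, SE 0.12) and Slc1a4 (0.48, SE 0.10) did not pass. What size of difference could pass with 3 arrays a group was not tested.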

Other observations

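Some of the transporter genes are neighbours in the genome. In the RefSeq gene table Slc38a1, Slc38a2 and Slc38a4 follow each other on chromosome 15 with 0 protein-coding genes between them, and their differences were 0.11, 0.36 and -0.14. Slc36a3, Slc36a2 and Slc36a1 follow each other on chromosome 11 in the same way, with differences of -0.10, 0.14 and -0.16. Slc43a1 and Slc43a3 lie on chromosome 2 with 1 protein-coding gene between them, and their differences were -0.02 and 0.60. In each of these clusters at least 1 gene was dim, which limits what its sign shows.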
